A study of Mus musculus with 6 samples.

Results

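The genes described here are Dpp4 and its relatives among the peptidases that cut after proline: Dpp4, Dpp7, Dpp8, Dpp9, Fap and Prep. They were taken as the rows of the deposited table with those gene symbols, which gave 6 of the 19618 genes listed. Gene expression was measured in keratinocytes, the main cells of the epidermis, isolated from the tail skin of mice 4 months old. Mice of the knockout group (3 libraries, here DE679, DE685 and DE688) had the genotype K14cre+/ Gpr161Flox-Homozygous, in which Cre recombinase under a keratin 14 promoter deletes Gpr161, a cilium receptor that restrains Hedgehog signalling, in keratin 14-expressing cells. The controls (3 libraries, here DE680, DE684 and DE689) carried no Cre, and all had the floxed allele. By the labels 1 control was Gpr161Flox-Homozygous and the others Gpr161Flox-Heterozygous; which library is which is not known, since column names carry only the group and a tag. The comparison of the genotypes asks what changes in keratinocytes when epidermal Gpr161 is deleted.

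Dipeptidyl peptidases remove dipeptides from the free amino end of a peptide when the second residue is proline or alanine. Dpp4, also known as CD26, sits on the cell surface and trims chemokines such as Cxcl12 and gut hormones such as glucagon-like peptide, which shortens or alters their signalling. In skin it is best known on dermal fibroblast lineages and T cells, and it has been described on keratinocytes. Fap, fibroblast activation protein, is its closest relative and cuts extracellular peptides and denatured collagen. Dpp8 and Dpp9 act inside the cell, where Dpp9 holds the Nlrp1 inflammasome sensor inactive. Dpp7 works in acidic vesicles. Prep, prolyl oligopeptidase, cuts within short peptides, so it is a proline-specific peptidase but not a dipeptidyl peptidase, and the group name fits the other members only.

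All 6 members are serine peptidases and share the glycine-x-serine-x-glycine-glycine motif around the catalytic serine. The windows below are shown because they hold this shared motif, which was not searched for in genes outside the group. Each is the coding strand of the longest coding transcript in GENCODE M21 (GRCm38), with the motif's codons in capitals.
Dpp4: atttggGGCTGGTCATATGGAGGGtatgta
Fap: atatggGGCTGGTCCTACGGAGGTtatgtt
Dpp8: atccacGGCTGGTCCTATGGTGGCtacctc
Dpp9: atccatGGCTGGTCCTACGGCGGCttcctc
Dpp7: gcctttGGAGGGAGTTATGGGGGGatgctg
Prep: atcaacGGAGGCTCCAACGGCGGCctctta
The motif occurred 1 time in each translated sequence, with its serine at residue 624 of 760 in Dpp4 and 624 of 761 in Fap. Over the whole protein, Dpp4 and Fap were identical at 52.2% of the residues of the shorter sequence, and Dpp8 and Dpp9 at 59.7%. Dpp4 shared 28.4% with Dpp8, 27.1% with Dpp9, 23.5% with Dpp7 and 20.6% with Prep.

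Dpp4 and Fap are also neighbours in the genome. Dpp4 (ENSMUSG00000035000) lies on chromosome 2 from 62330073 to 62412231 on the minus strand, and Fap (ENSMUSG00000000392) from 62500943 to 62574075 on the same strand, 88.7 kb away. Gcg, which encodes the precursor of glucagon-like peptide, lies between them. It is on the list of Dpp4 substrates below, but the deposited table held no row with that symbol. Dpp7 lies elsewhere on chromosome 2 (25352276 to 25356359, minus strand), Dpp8 on chromosome 9 (65032414 to 65082651, plus), Dpp9 on chromosome 17 (56186807 to 56218905, minus) and Prep on chromosome 10 (45067203 to 45167198, plus). All these positions are from GRCm38. The window from 250 bases before to 50 bases after the start site (RefSeq, GRCm38.p6) was found for 4 members, and CpG dinucleotides numbered 4 for Dpp4, 9 for Dpp7, 15 for Dpp9 and 24 for Dpp8, against a median of 7 over 32851 such windows.

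The libraries held 17157864 to 25344399 estimated counts. Each group had 1 library with Y-linked transcripts (DE685 and DE684, 3311 and 5291 Y-linked counts; at most 3 in the others). Gpr161 did not differ detectably over the whole gene (28.8 ± 4.23 against 31.4 ± 1.10 CPM for knockout and control, SD, n = 3 each; edgeR quasi-likelihood adjusted p = 0.553), so its counts do not check the labels. Its Hedgehog readouts did differ: Gli1 changed by 2.93 and Ptch1 by 1.58 on the log2 scale (edgeR adjusted p = 1.77e-05 and 0.00228). Levels are given as CPM, a count scaled to a common library total with trimmed-mean (TMM) factors. Nothing in the labels says whether a library is 1 mouse, so the spread may be partly technical.

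Dpp4 was about double in the libraries labelled knockout, and none of the other members separated the groups. The group was chosen by the difference between knockout and control levels of Dpp4 in these data, with its relatives added by name, so the members' values are a description and carry no test. The knockout libraries DE679, DE685 and DE688 held 37.6, 38.4 and 39.9 CPM of Dpp4, and the control libraries DE680, DE684 and DE689 held 16.1, 19.1 and 17.3. The lowest knockout library thus stood well above the highest control library, and the spread within each group was small, with a coefficient of variation of 3.12% in the knockout and 8.68% in the control. The means were 38.6 ± 1.21 and 17.5 ± 1.52 CPM (SD, n = 3 each), a ratio of 2.21 and a log2 fold change of 1.14 (SE 0.09). These values rest on 665 to 1027 counts per knockout library and 363 to 437 per control library. Over all 15422 genes tested, the median log2 change was −0.0036, the middle 50% of genes lay between −0.14 and 0.18, and Dpp4 ranked 271 by size of rise. Leaving out any 1 library kept the Dpp4 change between 1.08 and 1.21.

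**Figure D1:**
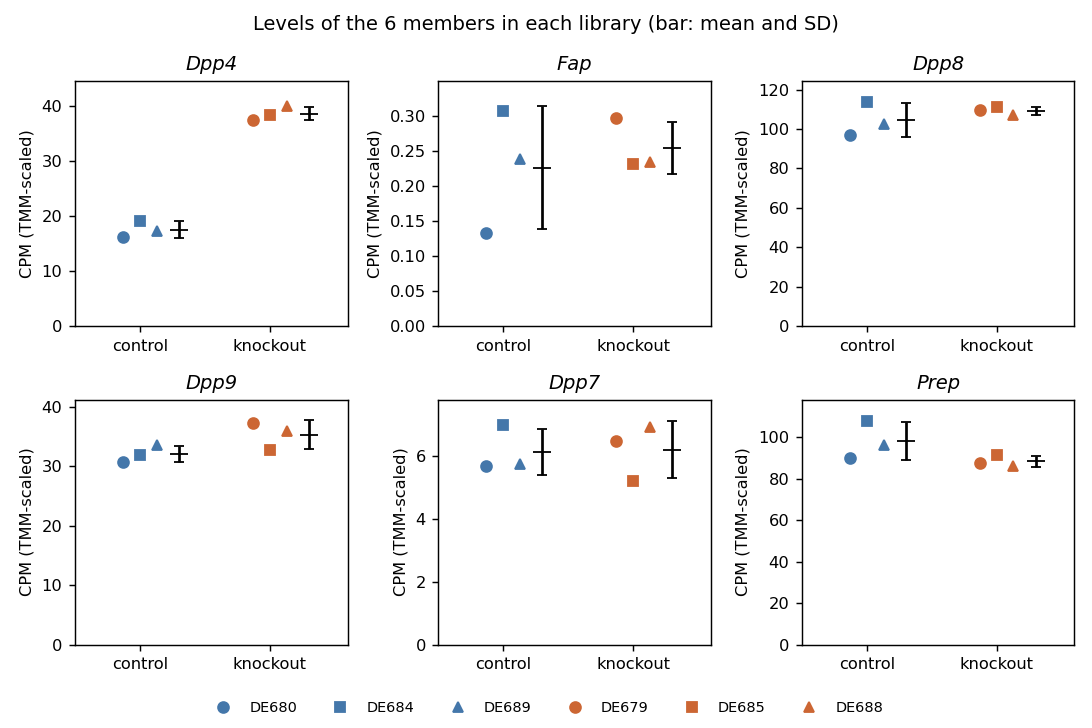
Levels of the 6 members in CPM (vertical axes from 0, a scale for each gene); points are libraries, and the bar beside them is the mean with its SD over 3 libraries. The Dpp4 points form 2 separate bands, 16.1 to 19.1 CPM in the control and 37.6 to 39.9 CPM in the knockout, while the groups overlap for the other 5 genes.

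Of the 6 members, 5 passed the filter on low counts, and 1 of these, Dpp4, had an adjusted p under 0.05, beside 1.6% of all genes tested in either direction (1.24% higher and 0.357% lower in the knockout). Dpp4 was also the single member whose libraries did not overlap between the groups, beside 25.6% of all genes tested. Nothing is read from these counts, because the choice of members used the same contrast.

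Fap, the close relative next to Dpp4 on the chromosome, was barely measured. It had 7, 4 and 6 counts in DE679, DE685 and DE688 and 3, 7 and 6 in DE680, DE684 and DE689. The groups were mixed, and they summed to 17 counts in the knockout (exact 95% Poisson interval 9.90 to 27.2, counting error only) and 16 in the control (9.15 to 26.0). At 0.133 to 0.307 CPM it did not pass the filter, and a difference was not detectable at this depth. The next genes beyond Fap that were in the table also gave no separation. Ifih1, a sensor of viral RNA, had 10.1 ± 2.35 CPM in the knockout and 8.10 ± 2.27 in the control (n = 3 each; log2 change 0.32, SE 0.25, edgeR adjusted p = 0.529), and Gca stayed at 0.212 to 0.347 CPM in all libraries.

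The intracellular pair showed little difference. Dpp8 had 110, 111 and 107 CPM in DE679, DE685 and DE688 and 97.1, 114 and 102 in DE680, DE684 and DE689, so the control range enclosed the knockout range (log2 change 0.06, SE 0.07). Dpp9 had 37.3, 32.7 and 36.0 CPM in the knockout libraries and 30.7, 31.8 and 33.5 in the controls in the same order. Its change was 0.14 (SE 0.08), with DE685 inside the control range.

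The vesicular and endopeptidase members likewise overlapped. Dpp7 had 6.49, 5.20 and 6.92 CPM in DE679, DE685 and DE688 and 5.68, 6.98 and 5.75 in DE680, DE684 and DE689, with the lowest value in the knockout and the highest in the control (log2 change 0.02, SE 0.17). It rests on 90 to 178 counts per library, and its sign turned negative in 4 of the 15 alternative settings. Prep had 87.5, 91.5 and 86.2 CPM in the knockout libraries and 89.8, 108 and 96.5 in the controls. It was thus lower on average in the knockout by a log2 change of −0.15 (SE 0.08), and DE680 lay within the knockout range.

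Divided by the length of the longest coding transcript, the order of levels in the control was Dpp8, Dpp9, Prep, Dpp7, Dpp4 and Fap. Dpp8 had 21.7 ± 1.78 CPM per kb there, Dpp9 9.50 ± 0.414, Prep 8.97 ± 0.842, Dpp7 3.65 ± 0.433, Dpp4 3.33 ± 0.289 and Fap 0.0822 ± 0.0318 (SD, n = 3). Dpp9 and Prep overlapped, and Prep was the higher in DE684 (9.88 against 9.44), so the order of these genes is not fixed by these libraries. The ranges of Dpp7 and Dpp4 also overlapped. Within each control library Dpp7 was nevertheless the higher on this measure. It had 3.38, 4.15 and 3.42 CPM per kb in DE680, DE684 and DE689, against 3.06, 3.63 and 3.29 for Dpp4. In the knockout Dpp4 reached 7.34 ± 0.229 CPM per kb, above Dpp7 at 3.69 ± 0.533 and still below Prep at 8.09 ± 0.252, without overlap on either side. Dpp4 thereby made up 13.5% to 14.4% of the summed per-kb level of the 6 members in the knockout libraries and 6.95% to 7.14% in the controls. The Prep transcript has 10933 bases, of which 2133 are coding, and with the length of all annotated exons the order changed to Prep, Dpp8, Dpp9, Dpp4, Dpp7 and Fap in the control. On that measure Dpp4 (6.12 ± 0.191 CPM per kb) stood above Dpp9 (4.48 ± 0.299) in the knockout and below it in the control (2.77 ± 0.241 against 4.06 ± 0.177). Its share of the summed level was then 20.7% to 22.0% in the knockout libraries and 10.86% to 11.05% in the controls.

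**Figure D2:**
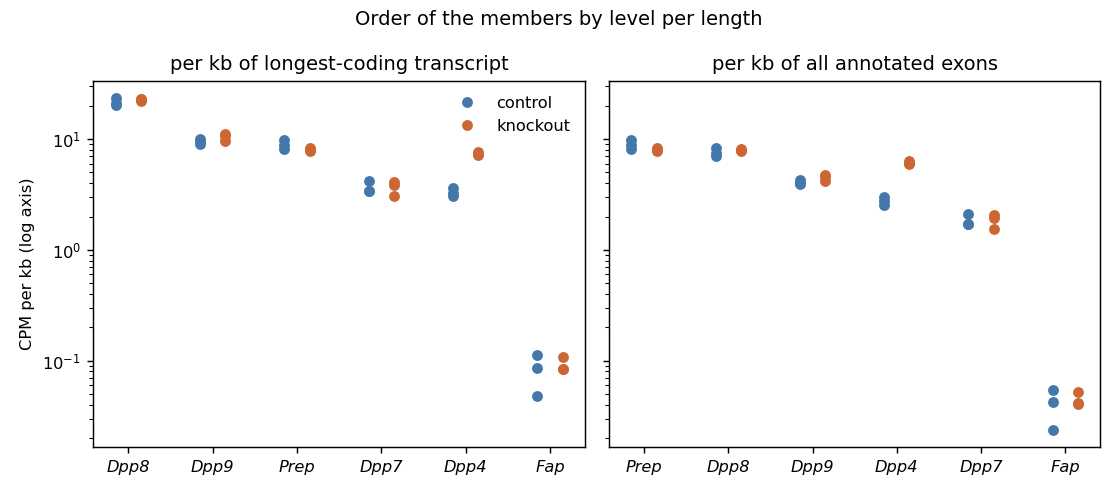
Level of each member in CPM per kb (log axis) for 3 control and 3 knockout libraries, with length taken as the longest coding transcript (left) or all annotated exons (right); genes are ordered by their control mean. Dpp4 is the gene whose points move between groups, from 3.33 to 7.34 CPM per kb on the left, and Fap lies far below the rest on both measures.

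An antisense gene, Gm13561, overlaps 232 exonic bases of Dpp4, and Gm47350 overlaps 316 of Dpp8. The libraries were stranded per the labels, but whether counting used strand is not given in the sources used here, so reads from these partners cannot be told apart.

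The cells were bulk preparations, in which more cells of a type and more RNA per cell cannot be told apart, so marker levels are given beside Dpp4. Basal keratinocyte markers (5 of 5 in the table) summed to 28451 to 32442 CPM in the knockout and 24930 to 29948 in the control, so the defining genes of the labelled cell type were abundant in every library. The fibroblast list (10 of 10) summed to 173 to 187 CPM in the knockout and 62.4 to 99.5 in the control, and Dcn and Thy1 carried this separation. The other 8 fibroblast genes, among them the collagens Col1a1, Col1a2 and Col3a1, summed to 16.2 to 19.8 CPM in the knockout and 12.9 to 40.1 in the control. Of these 8, Lum was at most 0.272 and Twist2 at most 0.219 CPM in any library. Pi16 had 0.519 ± 0.238 CPM in the knockout and 0.229 ± 0.0745 in the control, with overlap.

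T cell markers (7 of 8 in the table) summed to 6.18 to 12.7 CPM in the knockout and 3.51 to 6.26 in the control, so the groups overlapped by little. Cd4 (0.389 to 1.27 against 0 to 0.133 CPM), Trac (0.289 to 0.806 against 0.0877 to 0.133) and Lck (1.10 to 1.44 against 0.311 to 0.965) did not overlap. Cd3d, Cd3e, Cd3g and Trdc did. The 4 tested T cell genes had positive changes (median 0.49), and 0 passed in edgeR, beside 1.6% of all genes tested. At an unadjusted p under 0.05 there was 1 of the 4, beside 19%. DESeq2 called 0, beside 5.89% of all genes to which it gave an adjusted p. Langerhans cell and macrophage markers (6 of 6) summed to 41.8 to 100 and 24.5 to 83.7 CPM. The 4 tested genes of that list had positive changes (median 0.60), with 0 passing in edgeR (0 unadjusted, 0 in DESeq2). Melanocyte markers (5 of 5) summed to 63.0 to 100 and 42.1 to 68.0 CPM. All 5 had positive changes (median 0.54), with 0 passing in edgeR (2 unadjusted, 1 in DESeq2). Endothelial markers (5 of 5) summed to 3.35 to 4.28 and 3.41 to 6.80 CPM. Smooth muscle and pericyte markers (3 of 4) summed to 1.27 to 4.32 and 1.15 to 2.09 CPM. Suprabasal keratinocyte markers (5 of 5) overlapped, at 16816 to 24013 and 18770 to 32916 CPM. The summed levels of 2 lists of hair follicle keratinocyte markers did not overlap between the groups, while single genes varied. The upper follicle list (5 of 5) summed to 3912 to 4775 CPM in the knockout and 2850 to 3709 in the control. Most of that sum was Krt79 (mean 2174 against 1848 CPM) and Krt17 (1679 against 1172). The bulge list (5 of 5) summed to 1919 to 2277 and 1496 to 1784 CPM, most of it Krt15 (mean 1881 against 1443). Plet1, a marker of the junctional zone of the follicle, was the single gene of these 2 lists with an edgeR adjusted p under 0.05, at 110 ± 0.468 against 62.3 ± 2.21 CPM (n = 3 each; log2 change 0.82, SE 0.05, edgeR adjusted p = 0.00137). At an unadjusted p under 0.05 there were 4 of 5 genes in each of these 2 lists, beside 19% of all genes tested. DESeq2 called 4 of 5 in each, beside 5.89%. The groups overlapped for Krt79 (log2 change 0.23) in the upper follicle list and for Lgr5 (0.64) and Cd34 (−0.29) in the bulge list. The part of cell makeup in the Dpp4 values was not tested.

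The 6 lists of genes that work with the members held 70 genes, of which 40 passed the filter, and 2 of these 40 rose with an edgeR adjusted p under 0.05 while 0 fell. The background is 1.6% of all genes tested. At an unadjusted p under 0.05 there were 9 of the 40, beside 19% of all genes tested, and DESeq2 called 5, beside 5.89% of all genes to which it gave an adjusted p. The genes that rose were Cxcr4 and Anpep.

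Among receptors of Dpp4 substrates, 1 of 7 tested genes rose and 0 fell in edgeR, beside 1.6% of all genes tested. At an unadjusted p under 0.05 there were 3 of the 7, beside 19%, and DESeq2 called 2, beside 5.89%. The median log2 change was 0.59, beside −0.0036 for all genes. That median is the value of Tacr1, a gene at 0 to 0.763 CPM with an SE of 0.89, so it does not describe the list. Cxcr4, the signalling receptor of Cxcl12, had 3.99, 4.16 and 4.67 CPM in DE679, DE685 and DE688 and 0.222, 0.439 and 0.516 in DE680, DE684 and DE689. Every knockout library was far above every control library, though the gene was low in all (log2 change 3.42, SE 0.32, edgeR adjusted p = 0.00396, and 0.0224 at most when 1 library was left out). Ackr3, the scavenger receptor of Cxcl12, picked with its values in view, was more variable: it had 88.0, 45.1 and 61.3 CPM in the knockout and 35.5, 31.4 and 39.0 in the control. Its groups did not overlap, but the change of 0.88 (SE 0.22) did not pass in edgeR (adjusted p = 0.103). The edgeR adjusted p was 0.0498 without DE685 and 0.0364 with sex as a covariate, and the DESeq2 adjusted p was 0.000584. Igf1r, which has the highest counts in this list, had 68.4 ± 2.34 against 60.7 ± 6.83 CPM (n = 3 each, edgeR adjusted p = 0.327).

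Among substrates of Dpp4 or Fap, 0 of 7 tested genes passed in edgeR (0 at an unadjusted p under 0.05, and 0 in DESeq2), with a median change of −0.03. Of the 23 genes listed, 13 were in the table and 6 of these were too low to pass the filter, among them Cxcl9, Cxcl10 and Fgf21. Cxcl12, picked with its values in view, had 32.0, 39.7 and 32.0 CPM in the knockout libraries DE679, DE685 and DE688 and 30.9, 30.8 and 26.4 in the controls. The knockout libraries were all higher, but by little (log2 change 0.23, SE 0.11, edgeR adjusted p = 0.303). Hmgb1, the substrate with the highest counts, had 491 ± 9.37 and 502 ± 6.16 CPM (n = 3 each, edgeR adjusted p = 0.782).

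**Figure D3:**
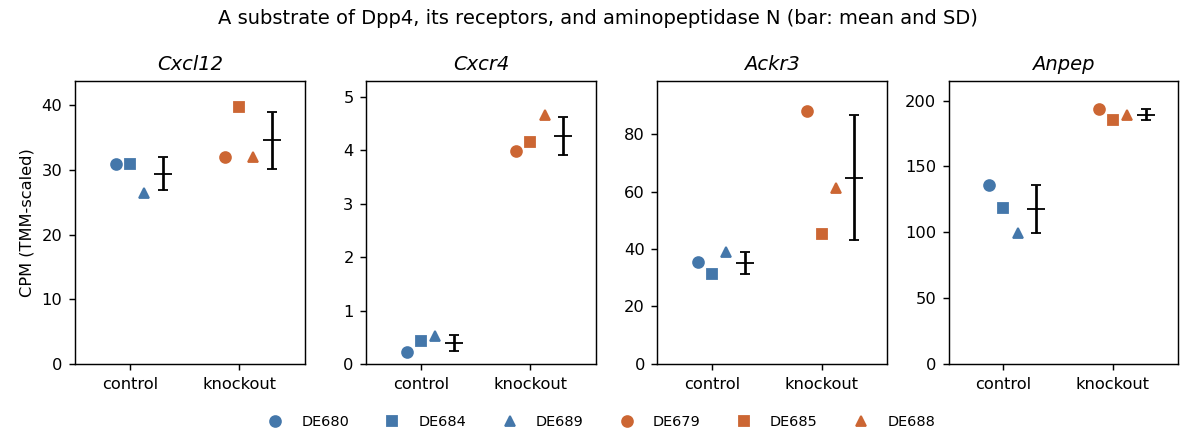
CPM (vertical axes from 0, a scale for each gene) of the Dpp4 substrate Cxcl12, its receptors Cxcr4 and Ackr3, and Anpep; points are libraries and the bar is the mean with its SD over 3. Cxcr4 sits at 3.99 to 4.67 CPM in the knockout and at most 0.516 CPM in the control, whereas the Cxcl12 groups lie close together.

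A list of other peptidases held 11 tested genes, of which 1 rose and 0 fell in edgeR, beside 1.6% of all genes tested (median change 0.07). Some of its genes, Anpep among them, are not proline-specific and belong to other enzyme families. At an unadjusted p under 0.05 there were 5 of the 11, beside 19%, and DESeq2 called 2, beside 5.89%. Anpep, aminopeptidase N or CD13, is another surface enzyme that trims the amino ends of peptides. It had 194, 186 and 189 CPM in DE679, DE685 and DE688 and 136, 119 and 99.3 in DE680, DE684 and DE689, and the groups stood apart (log2 change 0.68, SE 0.11, edgeR adjusted p = 0.0256). That call was lost without DE679 (edgeR adjusted p = 0.115), DE684 (0.0686), DE685 (0.0714) or DE688 (0.0935), though the change stayed at 0.67 to 0.70. The call was kept without DE689 (change 0.58) and without DE680 (0.80). Apeh, Dpp3 and Tpp2, which were picked from this list with their values in view, also had groups that did not overlap, but none passed in edgeR. Apeh, which releases acetylated amino acids, had 29.3 ± 1.82 against 21.4 ± 1.85 CPM (edgeR adjusted p = 0.0643, DESeq2 adjusted p = 0.00636). Dpp3, a zinc dipeptidyl peptidase of the cytosol, had 134 ± 3.42 against 154 ± 5.99 CPM, and Tpp2 53.1 ± 2.21 against 64.2 ± 4.45 CPM (n = 3 each, edgeR adjusted p = 0.112 for both).

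The remaining lists gave 0 calls in edgeR. Of binding partners of Dpp4 and Fap, 0 of 7 passed (0 unadjusted, 0 in DESeq2, median −0.03); Itga3, the integrin subunit with the highest counts among them, had 216 ± 17.2 against 245 ± 27.6 CPM (n = 3 each, edgeR adjusted p = 0.343). Of the Nlrp1 inflammasome, 0 of 5 passed (1 unadjusted, 1 in DESeq2, median −0.05). Its adaptor Pycard had 113 ± 14.6 against 117 ± 19.6 CPM (edgeR adjusted p = 0.873, n = 3 each), and the sensor Nlrp1b, which Dpp9 binds, was at most 0.272 CPM. Gsdmd, the pore-forming gasdermin, picked with its values in view, had 2.36 ± 0.761 against 0.909 ± 0.184 CPM (log2 change 1.38, SE 0.33, n = 3 each, edgeR adjusted p = 0.0927; DESeq2 adjusted p = 0.0277). Of the genes around Prep, 0 of 3 passed (0 unadjusted, 0 in DESeq2, median 0.13). Tmsb4x, the thymosin from which Prep helps release a short acetylated peptide, had 371 ± 6.28 against 407 ± 36.0 CPM (n = 3 each, edgeR adjusted p = 0.372).

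**Figure D4:**
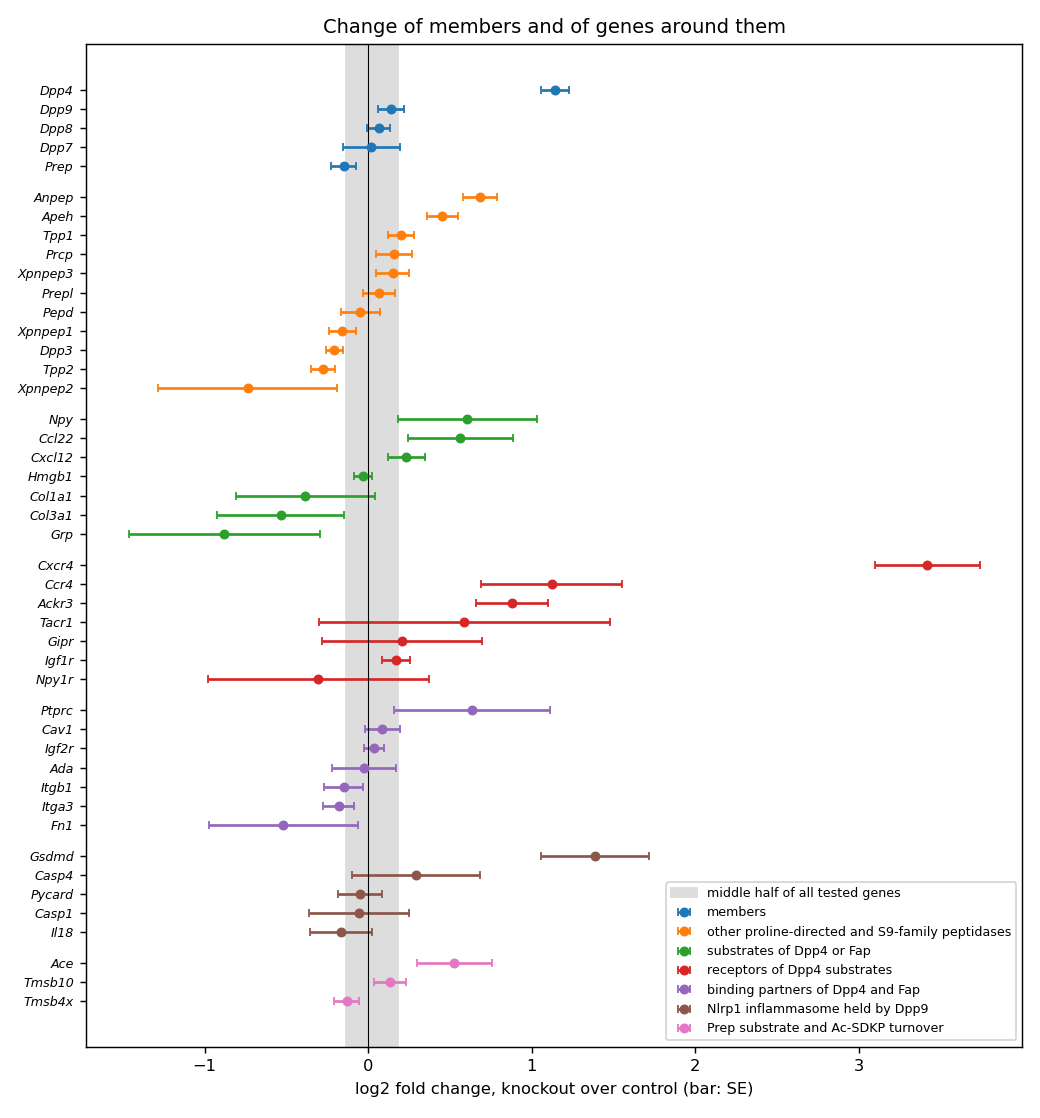
Log2 fold change, knockout over control, with its SE, for the 5 members and 40 listed genes that passed the filter; the grey band holds the middle 50% of all genes tested, −0.14 to 0.18. Dpp4 at 1.14 lies outside the band and the points of Dpp7, Dpp8 and Dpp9 lie in it, with Prep at −0.15 just outside; Cxcr4 at 3.42 is the farthest point of the lists.

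The genes whose profile over the 6 libraries was most like that of Dpp4 were Sox13, Tshz2, Il7, Hspg2 and Cgnl1. Likeness was the root-mean-square distance between log2 CPM profiles centred on their own mean, among 13642 other genes with a mean of at least 1 CPM. The distances were 0.09 for Sox13 and Tshz2, 0.10 for Il7 and Hspg2 and 0.11 for Cgnl1 on the log2 scale. Such a profile is mostly the difference between the groups: Sox13, a transcription factor, had 34.0, 36.7 and 39.2 CPM in DE679, DE685 and DE688 and 16.9, 20.5 and 15.9 in DE680, DE684 and DE689. Il7, a cytokine that supports T cells, had 16.7 ± 0.677 against 8.00 ± 1.03 CPM, and Hspg2, the basement membrane proteoglycan perlecan, 227 ± 12.7 against 97.0 ± 13.8 CPM (SD, n = 3 each). Among the members, Dpp9 was nearest by this measure, at rank 2628 with a distance of 0.51.

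With each group centred on its own mean, which removes the genotype difference, the order changed. Rrm2, Snrpa1, Tubb5, Spast and Casp2 were nearest, at 0.016 to 0.019. None of these 5 had an edgeR adjusted p under 0.05 for genotype. Dpp8 then ranked 119 and Prep 173 of 13642, at 0.04 each, nearer to Dpp4 than Dpp9 (rank 3121) or Dpp7 (rank 5969). The measure is a distance, so a small spread within groups shortens it whatever the pattern. What Dpp8 and Prep shared with Dpp4 was DE684 as the highest and DE680 as the lowest control. The knockout order was not shared: DE688 was the highest for Dpp4 (39.9 CPM) and the lowest for Dpp8 (107) and Prep (86.2).

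**Figure D5:**
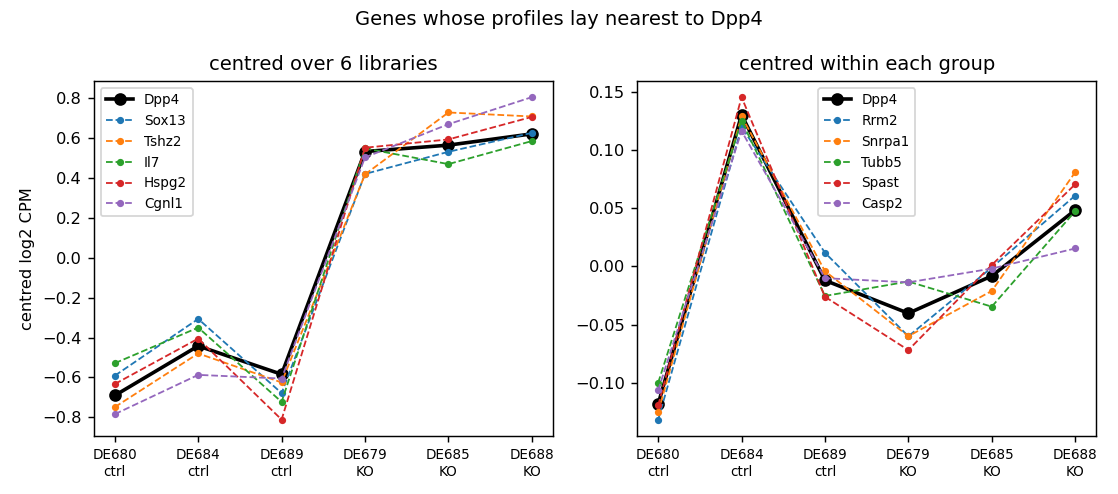
Centred log2 CPM of Dpp4 (black) and of the 5 nearest genes in each library, centred over all 6 libraries (left) or within each group (right); the order of libraries within a group has no meaning and lines only join points of a gene. The left profiles step between control and knockout, as Dpp4 does from 17.5 to 38.6 CPM, and the right profiles share a high DE684 and a low DE680.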

How the data were processed

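The authors deposited estimated counts per gene, not whole for every gene (53.0% to 57.7% of a library's values were whole), and a normalized signal per gene whose method is not given in the sources used here. The submitters' processing notes name bcl2fastq 2.20, cutadapt 1.18, STAR 2.7.0f, Partek and the build mm10. The counting tool and its strand setting are not given. Columns were assigned to groups by the KO or Ctrl in their names.

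Counts were rounded, filtered with filterByExpr, scaled by TMM and fitted with the quasi-likelihood test of edgeR 4.0.16 (R 4.3.3), genotype the only term, with Benjamini-Hochberg adjustment over all genes tested. The design had been laid out for counts and was kept for the rounded estimated counts. The scripts were tested on simulated data. Exon and transcript lengths came from GENCODE M21. Alternatives used limma 3.58.1 and DESeq2 1.42.0. The members and lists were chosen with earlier results of these data known. Named were all members, Gpr161, Gli1, Ptch1, the genes past the threshold and the one with the highest counts in each of 6 lists, and the 5 genes most like Dpp4. Ackr3, Tacr1, Cxcl12, Apeh, Dpp3, Tpp2, Gsdmd, Nlrp1b, the chromosomal neighbours Ifih1 and Gca, and single marker genes fall outside this rule and were picked with values in view. For single values, 0.1 is the smallest two-sided p that an exact permutation of 3 and 3 libraries allows.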

Additional observations from a re-analysis of the deposited data

How the results depend on the processing

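Across 15 alternative settings, the changes of Dpp4, Dpp8, Dpp9 and Prep kept their sign and those of all 5 members tested moved by less than 1 SD between replicates. The ranges were 1.08 to 1.21 for Dpp4, −0.07 to 0.13 for Dpp7, 0.01 to 0.13 for Dpp8, 0.11 to 0.19 for Dpp9 and −0.21 to −0.08 for Prep; Fap has too few counts for such a value. The number of genes called over the table was 247 (192 higher, 55 lower). It was 872 with DESeq2 (565 higher, 307 lower) and 409 with a sex covariate. With 1 library left out it was 69 (without DE688) to 121 (without DE684). Of those 121 genes, 104 were also among the 247. The causes of these rises and falls were not tested. Of the listed genes 2 were called, against 5 with DESeq2 (Ackr3, Apeh and Gsdmd added) and 1 to 2 with 1 library left out, the 1 being Cxcr4 without DE679, DE684 or DE688. No paired analysis was possible because no column name holds a replicate number. Neighbouring tags, used as blocks after seeing the data although no label pairs them, gave 704 genes over the table and 5 of the listed genes; the Dpp4 change from the authors' normalized signal was also tried after seeing the data. Depth limits Fap, for which 3 counts are 0.117 to 0.173 CPM.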
